A study of Saccharomyces cerevisiae with 6 samples.

Results

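Transcript levels of Saccharomyces cerevisiae cells lacking BUD27 were set against those of wild type (WT) cells. The comparison took every row of the deposited table that holds a gene, 5475 of 7247 rows, and left out the rows named as cryptic or stable unannotated transcripts. The libraries were those of 2 bud27 deletion samples and 2 WT samples. All are labelled as BY4741, the common haploid a-mating laboratory strain, grown in rich glucose medium (YPD) at 30 °C to an optical density of about 0.8. The labels give neither the removed part of BUD27, nor the marker that replaced it, nor the number of clones. BY4741 carries auxotrophic mutations in HIS3, LEU2, MET17 and URA3. Whether both groups share this genotype rests on the label, and reads at some marker loci, given below, differed between them. A pair of libraries from WT cells kept overnight with 50 ng/ml rapamycin entered the fit to help estimate the spread between replicates. That pair also took part in the filter of rows and in the scaling factors. Only the region next to the poly(A) tail is sequenced in this assay, so a value counts transcripts and longer genes gain no reads.

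Bud27 is a prefoldin-like protein of the cytoplasm, the yeast relative of mammalian URI, and takes part in the assembly of the nuclear RNA polymerases. It has been linked to signalling by TOR, the kinase that couples nutrients to ribosome production. When amino acids are scarce or translation initiation is impaired, translation of the transcription factor Gcn4 increases, and Gcn4 activates genes of amino acid synthesis.

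The values are CPM, reads scaled to a fixed library size, rescaled here by TMM factors. The deletion libraries were shallow, with 3212848 and 5088194 reads in all, against 26899486 and 18153459 reads in WT. In the deletion 31.2% and 27.7% of the reads lay outside the table's rows, and in WT 18.8% and 22.4%. The median absolute log2 difference between replicates was 0.28 in the deletion, 0.16 in WT and 0.10 in the rapamycin pair. In all, 5279 gene rows were tested with limma on log2(scaled CPM + 1), on which changes of rare transcripts come out too small, and a row was called at an adjusted p below 0.05. No source used here calls the 2 samples of a group separate cultures, so that the p-values may reflect technical spread only. On the scale as deposited the median difference of all rows was 0.38, against -0.02 after rescaling, and values near that shift depend on the scaling.

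BUD27 lies on chromosome VI at 90986 to 93376 of build R64, on the plus strand. It had 6 and 9 reads in the deletion libraries, against 268 and 246 in WT. The log2 fold change was -2.54 (SE 0.18, limma adjusted p = 4.9e-05), and the groups did not overlap. Its converging neighbour FRS2 was also lower, with a log2 fold change of -2.17, while the other neighbour, EPL1, had a log2 fold change of -0.07. Beyond FRS2 on the same chromosome, GAT1, an activator of nitrogen genes, had 8.32 and 13.4 scaled CPM in the deletion and 4.56 and 6.02 in WT, a log2 fold change of 0.89 (SE 0.23, limma adjusted p = 0.016). GAT1 did not pass without WT replicate 1 (adjusted p = 0.12).

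Loci used as markers in laboratory strains were read next. TRP1, of tryptophan synthesis, had 5 and 8 reads in the deletion and 738 and 626 in WT, although the labels give the same strain for both groups. LEU2, of leucine synthesis, is deleted in BY4741 and had 19 and 22 reads in the deletion against 1 and 14 in WT. MET17, also deleted in that strain, had 2 and 3 reads in the deletion and 31 and 80 in WT, a call that was lost without deletion replicate 1 (limma adjusted p = 0.076), deletion replicate 2 (0.058) or WT replicate 2 (0.082). URA3 had 10 and 14 reads in the deletion and 70 and 42 in WT, a log2 fold change of -0.14 that did not pass the test. HIS3, in a joined row, had a log2 fold change of 2.53. At these loci a difference may belong to the strain or to the marker as well as to the loss of Bud27. These causes cannot be told apart here. Any further difference between the strains would bear on every gene compared below in the same way, which was not tested.

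Of the 5279 rows tested, 2492 passed (47.2%). Among them 1147 were higher in the deletion (21.7%) and 1345 were lower (25.5%). Leaving out WT replicate 1 gave 1503 passing rows, and leaving out WT replicate 2 gave 1434. Both deletion libraries lay above both WT libraries in 1873 rows (35.5%) and below them in 2009 (38.1%). The deposited scale gave 2245 higher and 704 lower rows, so the balance of the directions follows the scaling.

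Most differences were small. The quartiles of the log2 fold change were -0.55 and 0.43, and the median SE was 0.18. Of the called rows, 975 had an absolute log2 fold change of at least 1 (18.5% of all rows). Between 1 and 2 there were 283 higher and 526 lower rows, between 2 and 3 there were 54 and 66, and from 3 upwards there were 23 in each direction. At the other end, the 95% interval of 2969 rows (56.2%) lay within 1 log2 unit of 0 on both sides, and that of 550 rows lay within 0.5.

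The difference was related to the level in WT. The rows were divided into 10 equal groups by WT level. In group 1, of the rarest transcripts, the median log2 fold change was 0.01, and in groups 2 to 4 it was 0.20, 0.26 and 0.24. It then declined through 0.10, 0.07, -0.05, -0.14 and -0.28 to -0.65 in group 10, whose median WT level was 509 scaled CPM. In that group 44 rows were higher and 302 lower. Medians by chromosome ran from -0.13 on chromosome III to 0.07 on chromosome II, and medians over 5 groups of gene length from -0.09 to 0.06. Within 30 kb of a chromosome end the median of 177 rows was -0.15, with 37 higher and 51 lower. Of these, the 18 rows within 10 kb had a median of -0.45, with 1 higher and 7 lower. Outside the ribosomal proteins, 136 spliced genes had a median of -0.02 and 4605 unspliced genes 0.01.

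**Figure D1:**
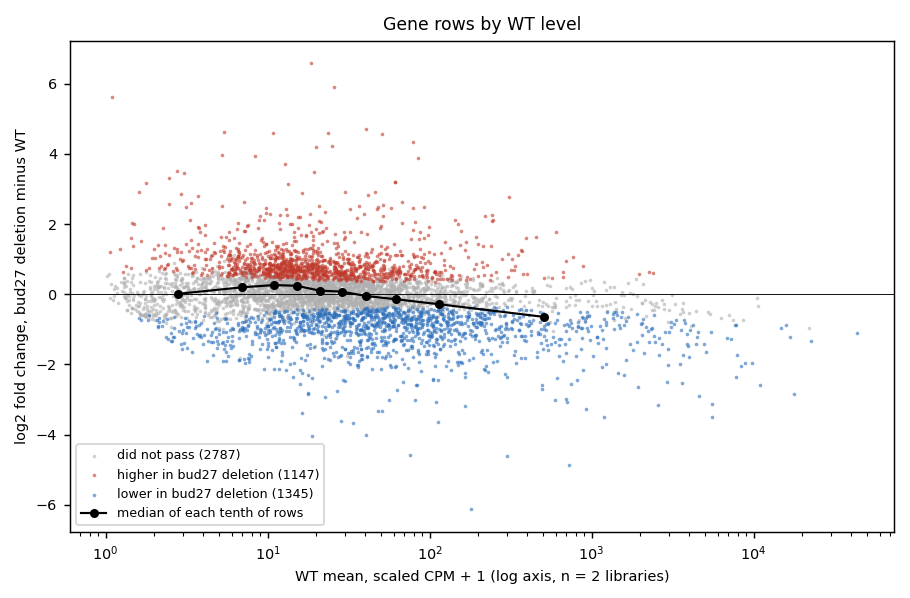
Each point is a tested gene row, with the WT mean in scaled CPM + 1 on a log axis and the log2 fold change, bud27 deletion minus WT, on the vertical axis. The points of the most abundant genes lie mostly below 0, with a median of -0.65 in the most abundant of 10 equal groups.

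Named groups of genes were described by 79 lists of pathways, complexes and cell structures that hold 1966 of the tested rows. Their counts are read against the 21.7% higher and 25.5% lower among all rows, and their medians against -0.02. Arginine, lysine, histidine, branched-chain and aromatic amino acid synthesis and respiratory complex III lay far towards the higher side. Lists of glycolysis, wall mannoproteins outside the TIR, DAN and PAU group, translation factors, ribosomal proteins, and fatty acids, sphingolipids and inositol phospholipids lay on the lower side. Some of these hold many abundant genes, and the median of the most abundant of the 10 groups by WT level was -0.65. With the scale as deposited 74 of the 79 lists had more higher members and 66 had fewer lower ones, and no list moved the other way in either count.

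**Figure D2:**
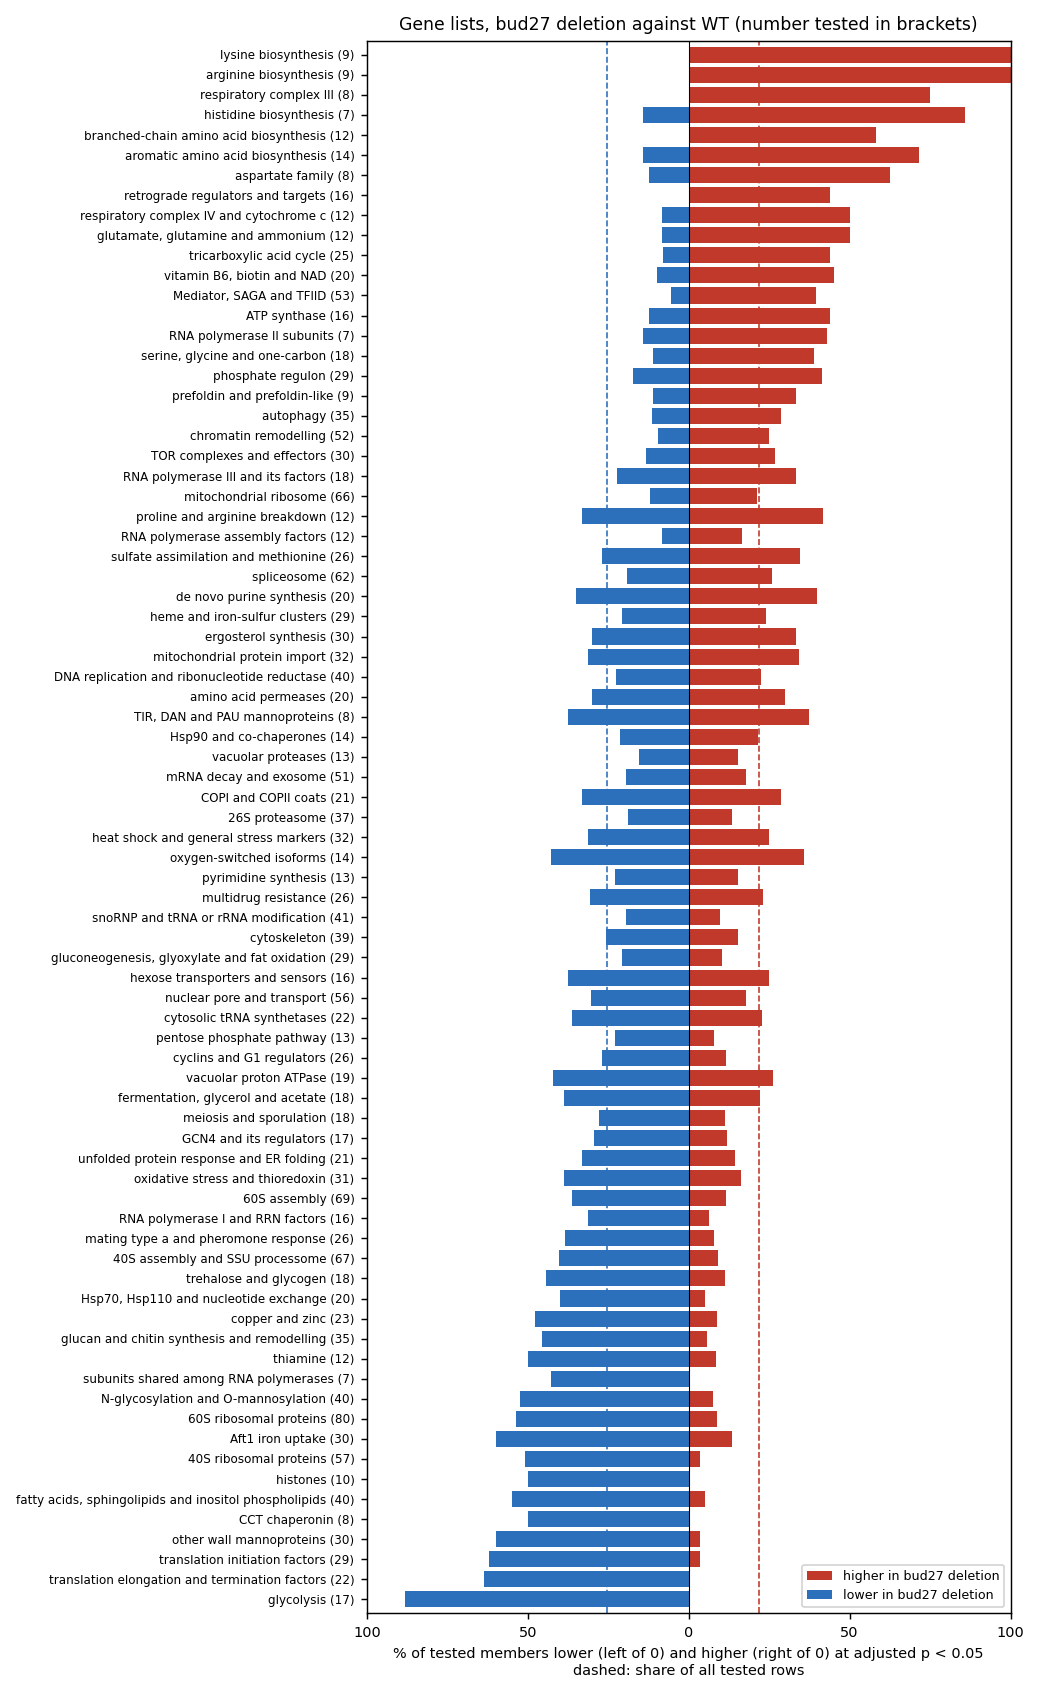
Bars give the share of the tested members of each list that was lower (left of 0) or higher (right of 0) in the bud27 deletion, in percent, and dashed lines give the shares of all tested rows. Arginine and lysine synthesis have all members on the higher side, and glycolysis has 15 of 17 on the lower side.

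Arginine synthesis moved as a whole. All 9 tested members were higher in the deletion, with a median log2 fold change of 3.44, and all 9 passed without each library in turn. Together the 9 rows took 0.981% and 0.842% of the gene reads in the deletion, against 0.0290% and 0.0288% in WT. ARG7, which makes ornithine from acetylornithine, had 1145 and 1323 scaled CPM in the deletion and 89.4 and 77.7 in WT, a log2 fold change of 3.87 (SE 0.15, limma adjusted p = 1.9e-06). ARG4, argininosuccinate lyase, had 1193 and 1209 scaled CPM in the deletion and 52.7 and 46.5 in WT, a log2 fold change of 4.57 (SE 0.13, limma adjusted p = 5.9e-07). ARG3, ornithine carbamoyltransferase, had 34.1 and 30.6 scaled CPM in the deletion and 2.08 and 2.05 in WT, a log2 fold change of 3.44 (SE 0.15, limma adjusted p = 4e-06). In each of these the groups were far apart. ARG2, the first step of ornithine synthesis, had the smallest rise at 1.22, and ARG8 and ARG5,6 of the same branch rose by 2.11 and 2.34.

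Lysine synthesis showed the same uniformity, with 9 of 9 members higher and a median of 2.02. Without either WT library 8 of 9 were higher. LYS9, saccharopine dehydrogenase, had 519 and 332 scaled CPM in the deletion and 60.2 and 73.4 in WT, a log2 fold change of 2.62 (SE 0.22, limma adjusted p = 0.0001). The homocitrate synthases LYS20 and LYS21 rose by 2.02 and 2.47, and LYS12, homoisocitrate dehydrogenase, by 1.84. LYS14, the activator of these genes, had 43.6 and 44.4 scaled CPM in the deletion against 18.8 and 15.7 in WT, a rise of 1.30. For all of these the libraries of the 2 groups did not overlap.

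In histidine synthesis 6 of 7 members were higher, with a median of 2.06. HIS4, a protein with 3 enzyme activities of the pathway, had 653 and 477 scaled CPM in the deletion and 60.8 and 59.1 in WT, a log2 fold change of 3.20 (SE 0.16, limma adjusted p = 1.1e-05). HIS1, of the first step, had 884 and 1313 scaled CPM in the deletion and 261 and 232 in WT, a log2 fold change of 2.13. The groups were separated at both genes. The exception was HIS6, in a row joined with another feature, with 29.7 and 42.3 scaled CPM in the deletion and 96.9 and 98.6 in WT (log2 fold change -1.44). HIS3 stands in a joined row as well, so its rise of 2.53 cannot be assigned to it alone. That row is among the 6 higher ones, although HIS3 is a marker locus mutated in BY4741.

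Genes of leucine, isoleucine and valine synthesis differed between paralogs. Of 12 members 7 were higher and none lower, with a median of 0.96. The 5 not called include ILV5, with only 13 and 8 reads in the deletion and 88 and 72 in WT, so its value is uncertain. The higher ones include the marker locus LEU2, deleted in BY4741 and with few reads, as described above. LEU1, isopropylmalate isomerase, had 1786 and 1409.6 scaled CPM in the deletion and 84.3 and 72.1 in WT, a log2 fold change of 4.33 (SE 0.16, limma adjusted p = 1.9e-06). LEU4, the main isopropylmalate synthase, had 1749 and 2539.8 scaled CPM in the deletion and 342 and 279 in WT, a log2 fold change of 2.77 (SE 0.21, limma adjusted p = 6.1e-05). Its paralog LEU9 had 249 and 328 scaled CPM in the deletion and 336 and 299.98 in WT, so the groups overlapped (log2 fold change -0.15, limma adjusted p = 0.46, and 0.042 without deletion replicate 2). A like contrast held between the transaminases. Mitochondrial BAT1 had 973 and 1101 scaled CPM in the deletion and 252 and 232 in WT, a rise of 2.09, while cytosolic BAT2 had 282 and 257 in the deletion and 256 and 222 in WT (log2 fold change 0.17, limma adjusted p = 0.35). BAT2 passed at 0.61 on the deposited scale.

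Among 14 aromatic genes 10 were higher and 2 lower, with a median of 1.48. Both DAHP synthases of the entry step, ARO3 and ARO4, rose, by 2.48 and 1.59, as did the pentafunctional ARO1 by 2.50. TRP4, anthranilate phosphoribosyltransferase, had 288 and 178 scaled CPM in the deletion and 31.6 and 26.8 in WT, a log2 fold change of 2.92 (SE 0.22, limma adjusted p = 5.5e-05). TRP5, tryptophan synthase, went the other way, with 206 and 169 scaled CPM in the deletion and 333 and 307 in WT (log2 fold change -0.77, limma adjusted p = 0.0039), a call that was lost on the deposited scale. The 2 lower members were thus TRP1 and TRP5. TYR1, the dehydrogenase of tyrosine synthesis, had 48.0 and 45.8 scaled CPM in the deletion and 47.5 and 52.8 in WT, with no difference beyond the spread (limma adjusted p = 0.57).

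The glycine cleavage system was among the most raised units of metabolism. GCV2, its decarboxylase, had 188 and 147 scaled CPM in the deletion and 12.7 and 11.1 in WT, a log2 fold change of 3.70 (SE 0.16, limma adjusted p = 3.6e-06). GCV3, the lipoyl carrier protein, had 572 and 673 scaled CPM in the deletion and 136 and 150.1 in WT, a rise of 2.11. GCV1, in a joined row, rose by 3.48, while LPD1, the dehydrogenase that this system shares with other complexes, had 150.1 and 178 in the deletion and 169.7 and 149.6 in WT (log2 fold change 0.04). SHM2, cytosolic serine hydroxymethyltransferase, rose by 1.62, and its mitochondrial partner SHM1 had a log2 fold change of 0.03 (limma adjusted p = 0.87). Of the 18 members of the serine, glycine and folate list, 7 were higher and 2 lower.

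In the aspartate family 5 of 8 members were higher and 1 lower. HOM2, aspartate semialdehyde dehydrogenase, had 1879 and 2203 scaled CPM in the deletion and 642 and 561 in WT, a rise of 1.76. Asparagine synthetase ASN1 had 625 and 605 scaled CPM in the deletion and 229 and 247 in WT, a rise of 1.37, and its paralog ASN2 had 191 and 133 in the deletion and 203 and 168 in WT (log2 fold change -0.21, limma adjusted p = 0.38, and 0.045 without deletion replicate 1). Without deletion replicate 1, WT replicate 1 or WT replicate 2, 3 were higher. The sulfur list was mixed, with 9 higher and 7 lower of 26, with 4 lower without either deletion library and 3 without WT replicate 2. MET16, of sulfate reduction, rose by 2.28 and MET22, the phosphatase that clears its by-product, by 2.23, whereas CYS3, cystathionine gamma-lyase, had 241 and 271 scaled CPM in the deletion and 660.2 and 590.45 in WT, a log2 fold change of -1.29 (SE 0.14, limma adjusted p = 0.00036).

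**Figure D3:**
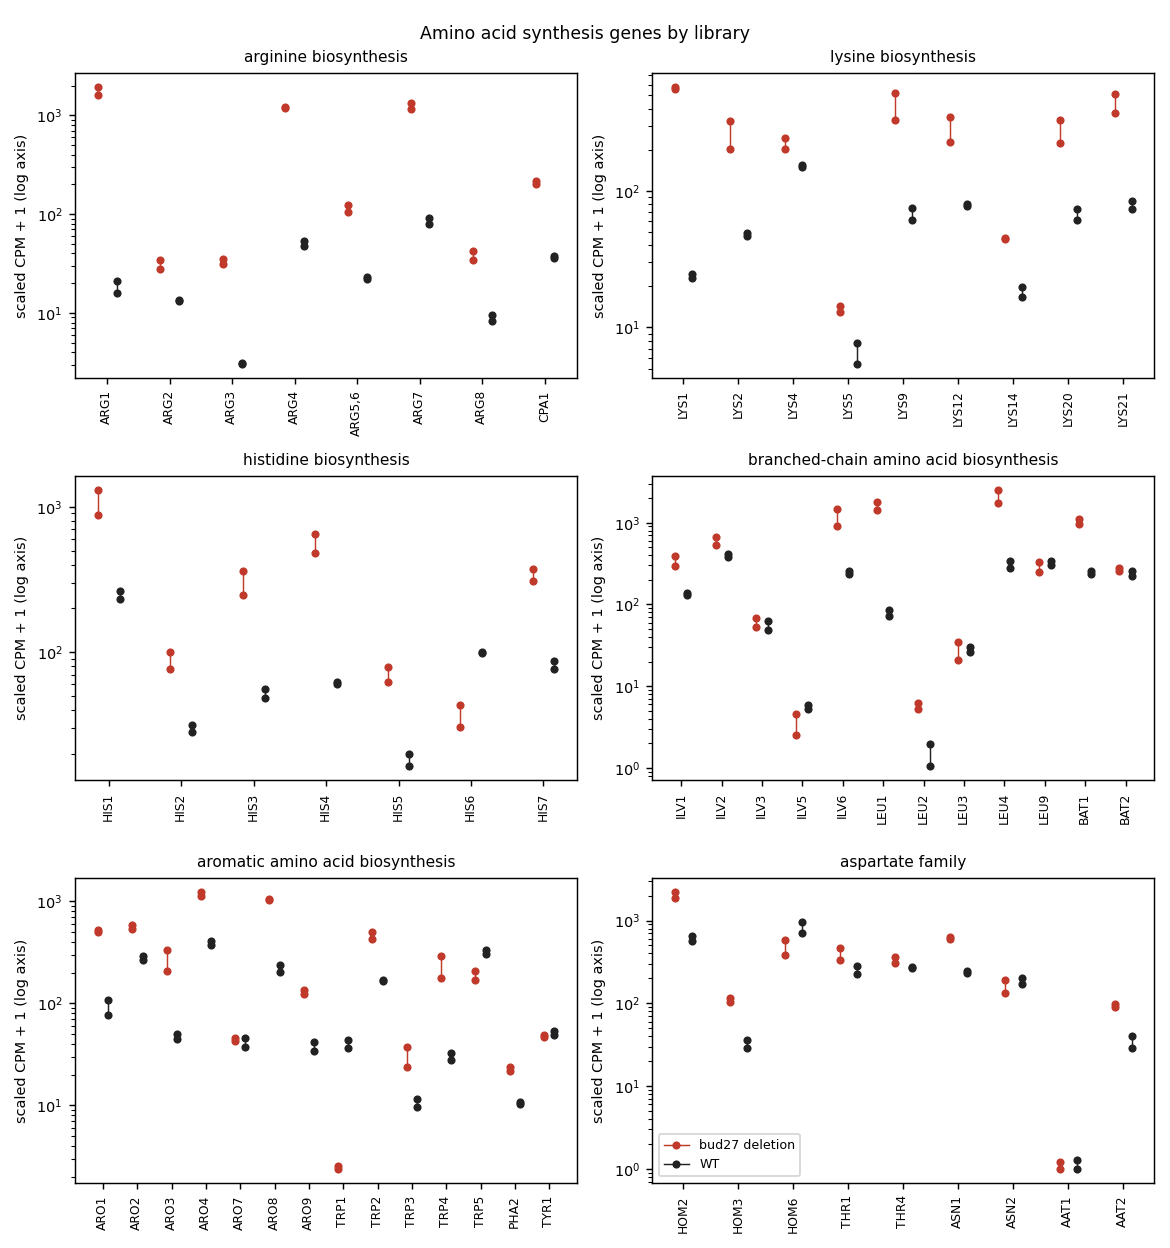
Levels of amino acid synthesis genes in each library, in scaled CPM + 1 on a log axis, with the bud27 deletion libraries drawn left of the WT libraries for each gene. All arginine and lysine genes drawn have both deletion points above both WT points, while LEU9 and ASN2 overlap and TRP1 and TRP5 are lower in the deletion.

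The 6 bases TGACTC, read on either strand (as GAGTCA on the other), are the core of the site that Gcn4 binds, and Bas1, an activator of purine and histidine genes, recognises the same core. The 500 bases upstream of the start codon were searched in 5033 genes of build R64, and 665 of them (13.2%) held at least 1 match. The following stretches are shown because they carry the matches of genes with large rises, each printed 5′ to 3′ on the strand of its gene with the core in capitals. They lie at chrXIII:637190-637279 (plus strand) for GCV2, chrIII:68509-68608 (minus) for HIS4, chrIX:420847-421006 (minus) for LYS1 and chrXIII:458090-458254 (minus) for SNO1.
GCV2: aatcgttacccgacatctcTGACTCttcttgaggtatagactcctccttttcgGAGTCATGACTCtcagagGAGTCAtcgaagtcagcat
HIS4: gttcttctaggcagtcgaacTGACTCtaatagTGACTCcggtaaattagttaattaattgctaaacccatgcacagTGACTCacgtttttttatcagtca
LYS1: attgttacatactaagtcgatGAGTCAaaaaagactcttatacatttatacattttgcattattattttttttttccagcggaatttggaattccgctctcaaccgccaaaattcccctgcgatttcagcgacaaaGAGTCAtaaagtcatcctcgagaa
SNO1: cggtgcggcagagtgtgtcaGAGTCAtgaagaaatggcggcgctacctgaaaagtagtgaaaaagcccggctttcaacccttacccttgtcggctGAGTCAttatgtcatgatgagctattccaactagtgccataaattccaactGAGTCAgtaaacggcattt
GCV2 held 4 cores within these 90 bases, a pair of them adjoining on opposite strands, and HIS4 held 3 on the same strand. LYS1 held 2 and SNO1 held 3. A match is a description of the sequence and not a site shown to be bound.

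The share of genes that was higher in the deletion grew with the number of matches. Of 4227 tested genes with no match, 20.04% were higher and 25.98% lower, with a median log2 fold change of -0.04. With 1 match, 34.0% of 570 genes were higher and 17.9% lower, with a median of 0.22. With 2 matches, 53.1% of 64 genes were higher and 12.5% lower, with a median of 0.53. With 3 or 4 matches, 6 of 9 genes were higher and none lower. The 9 genes are few, and divergently transcribed neighbours share 1 upstream region and so its matches.

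Seen from the other side, the share with a match depended on the size of the change. A match was found for 42 of 72 genes with a log2 fold change of at least 2 among the higher ones (58.3%), for 69 of 260 between 1 and 2 (26.5%) and for 123 of 749 below 1 (16.4%). It was found for 299 of 2581 genes not called (11.6%) and for 110 of 1208 lower ones (9.11%). Within the lists of amino acid and nucleotide synthesis, 60 of 95 higher genes had a match, against 33 of 75 not called and 8 of 40 lower ones. The strongly raised genes without a match included the phosphate transporter PHO84, INH1, an inhibitor of the mitochondrial ATP synthase, and the amino acid genes LYS9, LYS21 and ARO3.

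**Figure D4:**
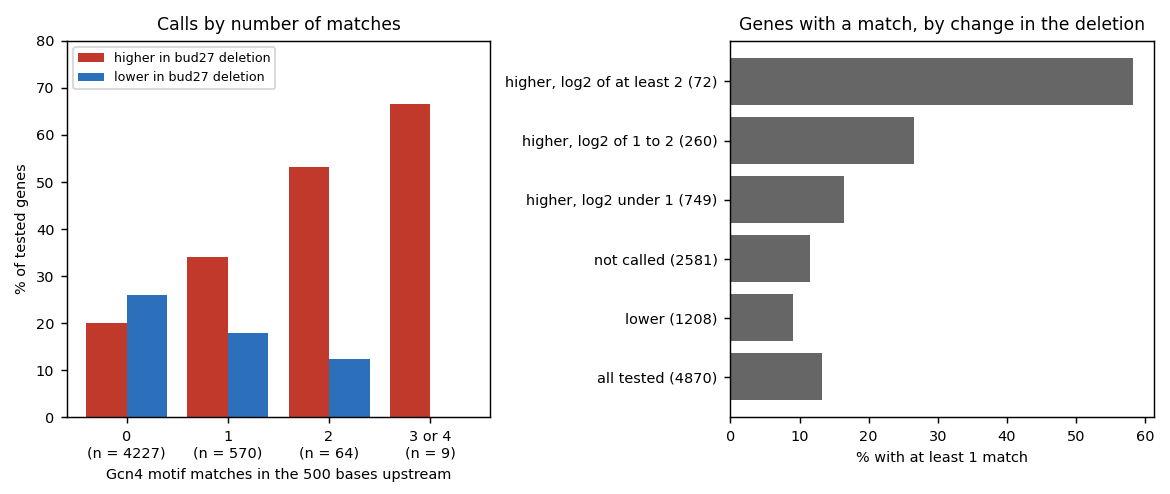
Left, percent of tested genes called higher or lower in the bud27 deletion by the number of Gcn4 cores in the 500 bases upstream. Right, percent of genes with at least 1 core by direction and size of the change. The share of higher genes is 20.04% with no core and 53.1% with 2, and 58.3% of the genes with the largest rises have a core.

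GCN4 itself had 1398 and 1716 scaled CPM in the deletion and 904 and 866 in WT, a log2 fold change of 0.81 (SE 0.17, limma adjusted p = 0.0068). The groups did not overlap, but it did not pass without WT replicate 1 (adjusted p = 0.052) or replicate 2 (adjusted p = 0.065). Transcript levels say nothing of its translation, through which it is mainly controlled. Of 17 tested genes for GCN4 and its regulators, 2 were higher and 5 lower, and 3 were lower without either WT library, with 1 or 0 higher. GCN2, the kinase that senses uncharged tRNA, had 49.1 and 48.3 scaled CPM in the deletion and 34.5 and 29.3 in WT, a log2 fold change of 0.60 (limma adjusted p = 0.01) that was not called without WT replicate 2 (adjusted p = 0.076). Subunits of eIF2B, the exchange factor that Gcn2 acts on through eIF2, were on the lower side. GCD7 had 39.1 and 57.5 scaled CPM in the deletion and 181 and 168 in WT, a log2 fold change of -1.86 (SE 0.19, limma adjusted p = 0.00026), and GCD6 fell by 1.14. GCD1 had a log2 fold change of -0.12 and did not pass.

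Nitrogen regulation moved in part. GLN3, an activator of nitrogen genes that TOR restrains, had 65.2 and 54.9 scaled CPM in the deletion and 28.6 and 23.6 in WT, a log2 fold change of 1.17 (SE 0.15, limma adjusted p = 0.00079). Its inhibitor URE2 rose by 0.59 and the repressor GZF3 by 0.87. GDH1, the main glutamate dehydrogenase for ammonium use, had 572 and 641 scaled CPM in the deletion and 142 and 157 in WT, a rise of 2.01. In the list of proline and arginine metabolism with breakdown of GABA, 5 of 12 were higher and 4 lower (7 and 1 on the deposited scale), but 2 and 2 without WT replicate 1 and 2 and 1 without WT replicate 2. PUT4, the proline permease, had 12.2 and 13.6 scaled CPM in the deletion and 2.71 and 2.81 in WT, a rise of 1.89, and UGA3, the activator of GABA genes, rose by 2.79. PUT1, of proline breakdown, fell by 1.32 (not called with reads thinned to the shallowest library, adjusted p = 0.22), and CAR1, arginase, had 111 and 136 scaled CPM in the deletion and 123 and 159 in WT, with overlap. The ammonium permease gene MEP2 rose by 0.60, but did not pass without WT replicate 1 (adjusted p = 0.13), with the 4 libraries alone (0.059) or with thinned reads (0.086). The general permease gene GAP1 had no more than 0.137 scaled CPM in any library. Of 20 amino acid permease genes 6 were higher and 6 lower. AGP1, a broad permease, rose by 1.44 and BAP2, for branched-chain amino acids, by 0.83, while DIP5, for acidic amino acids, had 11.1 and 10.9 scaled CPM in the deletion and 25.7 and 43.5 in WT, a log2 fold change of -1.52. The permeases numbered 3 higher and 5 lower without WT replicate 1 and 3 and 4 without WT replicate 2.

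Vitamin and cofactor genes were divided. In the list of vitamin B6, biotin and NAD, 9 of 20 were higher and 2 lower. PDX3, which makes pyridoxal phosphate, had 267 and 287 scaled CPM in the deletion and 93.1 and 88.7 in WT, a rise of 1.60. SNZ1, of vitamin B6 synthesis, in a joined row, had 1739 and 1349 scaled CPM in the deletion and 24.3 and 25.1 in WT, a rise of 5.90. BNA1, of NAD synthesis from tryptophan, had 370.1 and 353 scaled CPM in the deletion and 19.1 and 18.6 in WT, a log2 fold change of 4.19 (SE 0.12, limma adjusted p = 6.1e-07). BIO2, biotin synthase, fell by 1.80 and the nicotinate transporter TNA1 by 1.18. Of 12 thiamine genes 6 were lower and 1 higher, with a median of -0.86. Without WT replicate 2, 3 were lower. PHO3, a phosphatase that releases thiamine, had 20.8 and 23.2 scaled CPM in the deletion and 82.9 and 74.2 in WT, a log2 fold change of -1.79 (SE 0.14, limma adjusted p = 7.2e-05).

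Purine synthesis was divided. Of 20 members 8 were higher and 7 lower (10 and 4 on the deposited scale), and the list median of -0.03 became 0.41 on that scale. ADE17, of the last steps to IMP, had 99.9 and 75.8 scaled CPM in the deletion and 21.3 and 18.4 in WT, a rise of 2.08, and its paralog ADE16 had 52.7 and 50.1 in the deletion and 63.0 and 50.7 in WT, with the groups overlapping. ADE8 rose by 1.95 and ADE4, of the first committed step, by 1.12, while ADE5,7, also of the path to IMP, fell by 0.64 (not called on the deposited scale, adjusted p = 0.19). On the way to GMP, GUA1, GMP synthase, had 149 and 211 scaled CPM in the deletion and 573 and 495 in WT, a log2 fold change of -1.58 (SE 0.26, limma adjusted p = 0.002). Of the IMP dehydrogenases before it, IMD3 had a log2 fold change of -0.47 that did not pass (limma adjusted p = 0.074, and 0.0042 without deletion replicate 1), and IMD4, in a joined row, fell by 1.57. BAS1, the activator named above, rose by 1.36. In pyrimidine synthesis 2 of 13 were higher and 3 lower, among them FUR1, uracil phosphoribosyltransferase, at -1.15.

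Glycolysis was lower nearly throughout. Of 17 tested genes 15 were lower and none higher, with a median of -1.40, against 25.5% lower among all rows. The count includes FBA1, aldolase, known as an abundant gene, which had 0 reads in both deletion libraries and 56 and 411 in WT, so its value is uncertain. Apart from it 14 of 16 were lower, with a median of -1.37. Without a WT library 11 or 12 were lower, and on the deposited scale 14 were lower and 1 higher. The list took 6.51% and 6.66% of the gene reads in the deletion and 12.6% in each WT library. TDH2, a glyceraldehyde phosphate dehydrogenase, had 630.3 and 612 scaled CPM in the deletion and 4552 and 4726 in WT, a log2 fold change of -2.90 (SE 0.16, limma adjusted p = 1.6e-05). TPI1, triose phosphate isomerase, had 1645 and 2001 scaled CPM in the deletion and 12409.8 and 9418 in WT, a log2 fold change of -2.57 (SE 0.26, limma adjusted p = 0.00022). CDC19, pyruvate kinase, had 2094 and 2855 scaled CPM in the deletion and 18414 and 16921 in WT, a log2 fold change of -2.85 (SE 0.26, limma adjusted p = 0.00016). These 3 genes had no overlap between the groups.

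The same pathway held members that did not pass or passed weakly. ENO1, an enolase, had 606 and 617 scaled CPM in the deletion and 734 and 657 in WT, a log2 fold change of -0.18 that did not pass (limma adjusted p = 0.32). ENO2, the main enolase, had 7890.0 and 10061 scaled CPM in the deletion and 23795 and 21550 in WT (log2 fold change -1.35), but it did not pass without WT replicate 1 (adjusted p = 0.072) or replicate 2 (adjusted p = 0.057). TDH3, the most abundant of them, had 18635 and 21859 scaled CPM in the deletion and 44645 and 42324 in WT (log2 fold change -1.11), with the call likewise lost without WT replicate 1 (adjusted p = 0.18) or replicate 2 (adjusted p = 0.16). PYK2, the second pyruvate kinase, was rare in all 4 libraries. HXK2, hexokinase, fell by 1.52, PFK1 and PFK2, phosphofructokinase, by 1.31 and 1.40, and PGI1, of the second step, by 0.88. GPM1, phosphoglycerate mutase, fell by 0.87, a call lost without WT replicate 1 (adjusted p = 0.11) or replicate 2 (0.065) and with the scale as deposited (0.059).

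Fermentation genes did not share 1 direction, with 4 higher and 7 lower of 18. PDC1, pyruvate decarboxylase, had 9806 and 9796 scaled CPM in the deletion and 10787 and 10342 in WT, a log2 fold change of -0.11 (limma adjusted p = 0.74). ADH1, the main fermentative alcohol dehydrogenase, had 2262 and 2799.7 scaled CPM in the deletion and 10119.9 and 9581 in WT, a log2 fold change of -1.97 (SE 0.22, limma adjusted p = 0.00038). ADH5 had 113 and 124 scaled CPM in the deletion and 19.2 and 20.2 in WT, a rise of 2.53. Glycerol phosphatase GPP1 fell by 1.99. Acetate metabolism was also divided: ALD5, mitochondrial acetaldehyde dehydrogenase, rose by 2.88 and ALD4 fell by 1.69, and acetyl-CoA synthetase ACS2 rose by 1.27 while ACS1 fell by 1.67. Among hexose transporters HXT2 had 68.8 and 98.4 scaled CPM in the deletion and 626 and 779 in WT, a log2 fold change of -3.07 (SE 0.20, limma adjusted p = 3.2e-05).

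Mitochondrial metabolism leaned to the higher side. Of 25 genes of the tricarboxylic acid cycle 11 were higher and 2 lower, with a median of 0.43. PYC2, pyruvate carboxylase, rose by 1.68 and IDH2, a subunit of isocitrate dehydrogenase, by 1.14. In respiratory complex III 6 of 8 subunits were higher and none lower, with a median of 1.22, and 6 or 8 were higher without each library in turn. RIP1, its iron-sulfur protein, had 114 and 156 scaled CPM in the deletion and 39.3 and 40.5 in WT, a log2 fold change of 1.72 (SE 0.17, limma adjusted p = 0.00019). COR1 and QCR10 rose by 1.43 and 1.46.

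Complex IV and cytochrome c had 6 higher and 1 lower of 12 (3 lower without deletion replicate 2), and ATP synthase 7 higher and 2 lower of 16, or 11 higher without deletion replicate 1. CYC1, the main cytochrome c, had 327 and 423 scaled CPM in the deletion and 96.7 and 100.2 in WT, a rise of 1.91. Of the subunit pair used at high and low oxygen, COX5A had 113 and 169.8 scaled CPM in the deletion and 132 and 148 in WT, with the groups overlapping, and COX5B rose by 1.14. ATP4 and ATP19 of the synthase rose by 1.57 and 0.69. Its inhibitor INH1 had 13.6 and 16.9 scaled CPM in the deletion and 0.824 and 0.753 in WT, a rise of 3.18 (SE 0.19, limma adjusted p = 2.1e-05). Genes of mitochondrial import had 11 higher and 10 lower of 32, and the mitochondrial ribosome had 14 and 8 of 66. On the deposited scale import had 17 and 3 and the ribosome 39 and 4. TIM9, a chaperone of the intermembrane space, rose by 2.30. Import had 6 higher and 6 lower without WT replicate 1, and the ribosome 6 and 5. Without WT replicate 2 import had 6 and 7 and the ribosome 8 and 5, and without deletion replicate 2 the ribosome had 22 and 10.

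**Figure D5:**
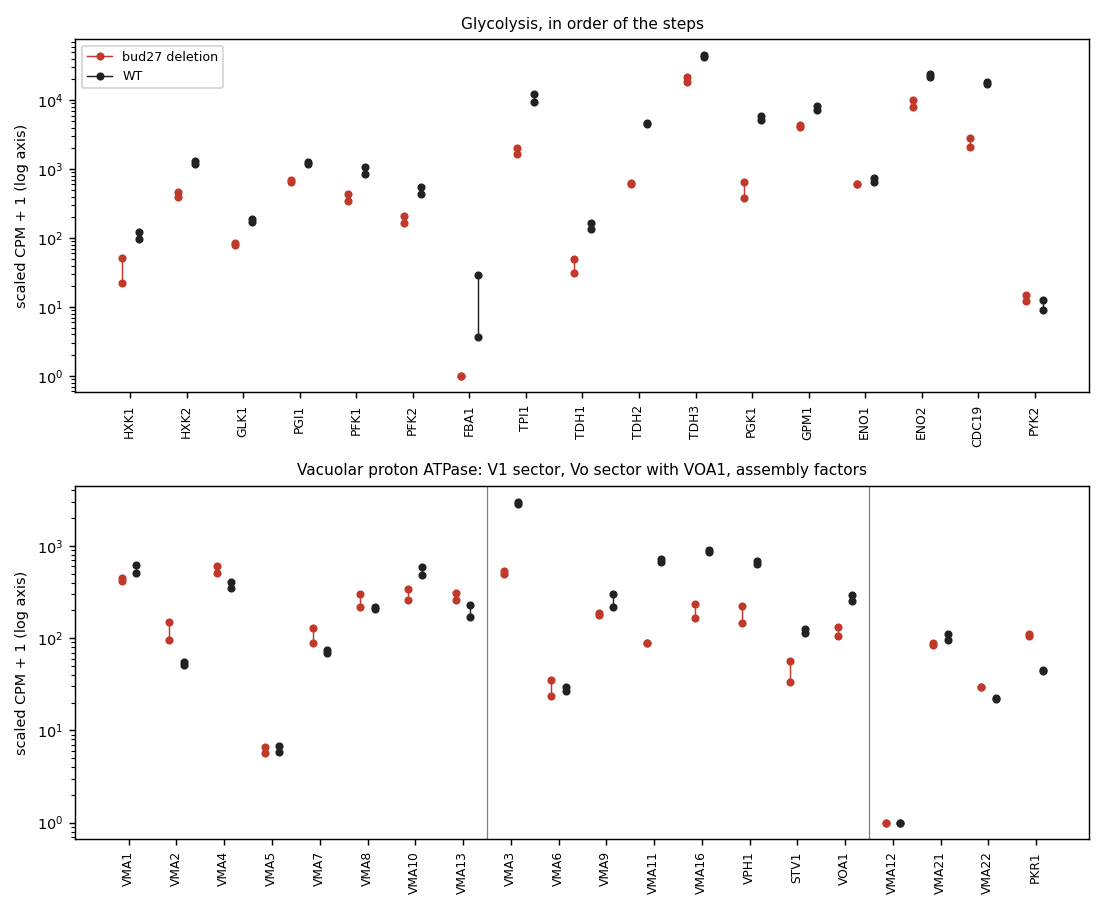
Levels in each library, in scaled CPM + 1 on a log axis, of glycolysis genes and of vacuolar proton ATPase genes, with the bud27 deletion libraries left of the WT libraries for each gene. Most glycolysis genes have both deletion points below both WT points, and in the ATPase the membrane sector genes VMA3, VMA11, VMA16 and VPH1 do so while VMA2 lies above.

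Cytosolic ribosomal protein genes were lower in part. Of 57 genes of the 40S subunit 29 were lower and 2 higher, with a median of -0.52, and of 80 of the 60S subunit 43 were lower and 7 higher, with a median of -0.60. These lists hold many abundant transcripts. Of the 528 rows most abundant in WT 302 were lower and 44 higher, with a median of -0.65, and the list medians were no lower than that. Those rows include ribosomal protein genes themselves, and abundant rows without them were not compared. Fewer passed as lower without WT replicate 1 (17 and 19) or WT replicate 2 (18 and 20). The higher ones then numbered 1 and 4 or 0 and 2. The deposited scale gave 20 lower and 6 higher in the 40S list and 22 and 14 in the 60S list, with medians of -0.09 and -0.16. The 40S list took 14.4% and 15.7% of the gene reads in the deletion and 15.9% and 15.8% in WT, and the 60S list took 18.2% and 20.01% in the deletion and 21.9% and 21.5% in WT. RPS4B had 946 and 1443 scaled CPM in the deletion and 4189 and 3813 in WT, a log2 fold change of -1.77 (SE 0.23, limma adjusted p = 0.00069). RPL35A went the other way, with 1738 and 1442 scaled CPM in the deletion and 760.4 and 766 in WT, a rise of 1.05 (SE 0.15, limma adjusted p = 0.0013). Many of these genes have near-identical copies whose reads the counting could divide or drop, so values of single copies are uncertain. RPP2A, a stalk protein gene, fell by 1.97.

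Translation factors were lower more uniformly. Of 29 initiation factors 18 were lower and 1 higher, with a median of -0.79, and of 22 elongation and termination factors 14 were lower and none higher, with a median of -0.66. Without either WT library 12 and 9 were lower. On the deposited scale the medians were -0.37 and -0.23, with 11 and 7 lower and 4 and 3 higher. TIF3, which stimulates the eIF4A helicase, had 139 and 242 scaled CPM in the deletion and 643 and 611 in WT, a log2 fold change of -1.77 (SE 0.23, limma adjusted p = 0.00082). DYS1, of the pathway that modifies eIF5A, had 82.7 and 130.1 scaled CPM in the deletion and 368 and 364 in WT, a log2 fold change of -1.81. The exception was CAF20, which binds the cap-binding protein and represses translation, with 304 and 310.5 scaled CPM in the deletion and 203 and 170.4 in WT, a rise of 0.72 (SE 0.14, limma adjusted p = 0.0046). The eIF4A genes TIF1 and TIF2 are near-identical copies, so their single values are uncertain. Of 22 tRNA synthetases 5 were higher and 8 lower, and 2 were higher without either WT library, with 5 or 6 lower. CDC60, for leucine, and ILS1, for isoleucine, rose by 1.37 and 1.16, and DPS1, for aspartate, fell by 1.26. The lowest member was FRS2, the neighbour of the deleted BUD27, at -2.17.

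Ribosome assembly showed a smaller shift that the scaling reverses. Of 67 genes of 40S assembly 27 were lower and 6 higher, with a median of -0.24 that was 0.18 on the deposited scale. Of 69 genes of 60S assembly 25 were lower and 8 higher, with a median of -0.23 that was 0.20 on the deposited scale. The lower ones numbered 19 and 14 without WT replicate 1 and 17 and 13 without WT replicate 2. In the same order of libraries 3 and 2, and 2 and 3, were higher, and without deletion replicate 2, 16 and 15. DBP2, an RNA helicase of ribosome maturation and mRNA export, had 133 and 166 scaled CPM in the deletion and 846 and 779 in WT, a log2 fold change of -2.44 (SE 0.15, limma adjusted p = 2.8e-05). UTP15, of the processome that works on the rRNA precursor, fell by 1.95. NOP56, of the nucleolar methylation particles, had 235 and 224 scaled CPM in the deletion and 152 and 125 in WT, a rise of 0.74 (SE 0.14, limma adjusted p = 0.0046). Upstream of genes, the RRPE letters AAAATTTT, common among ribosome biogenesis genes, occurred in 13.3% of all 5033 regions. Of 655 tested genes with them 33.7% were lower and 15.4% higher, against 23.4% and 23.2% of the 4215 without.

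Since Bud27 takes part in polymerase assembly, the polymerase genes were read singly. Of 16 genes of RNA polymerase I and its factors 5 were lower (31.25%, against 25.5% of all rows) and 1 higher. On the deposited scale 3 were lower and 4 higher, and the median of -0.19 became 0.14. RPA190, the largest subunit, had 254 and 339 scaled CPM in the deletion and 841 and 612 in WT, a log2 fold change of -1.29 (SE 0.20, limma adjusted p = 0.0017). RPA12, a small subunit, had 69.4 and 86.3 in the deletion and 81.3 and 84.3 in WT, with overlap. RNA polymerase III and its factors had 6 higher and 4 lower of 18, with a median of 0.18, but 2 and 3 without WT replicate 1 and 3 and 2 without WT replicate 2. Its lowest member was the largest subunit, RPO31, which had 26.4 and 54.1 scaled CPM in the deletion and 142 and 153 in WT, a log2 fold change of -1.93 (SE 0.28, limma adjusted p = 0.0013), and its highest TFC7, of the factor TFIIIC, which rose by 1.16. RPO21, the largest subunit of RNA polymerase II, had 102 and 93.9 in the deletion and 125 and 108 in WT, a log2 fold change of -0.24 that did not pass (limma adjusted p = 0.19). Among the other subunits of RNA polymerase II, RPB4 rose by 1.09 and RPB3 fell by 0.87.

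Of 7 subunits shared among the polymerases 3 were lower and none higher. On the deposited scale 2 were lower and 2 higher, and the median of -0.02 became 0.41. RPC10, a small zinc-binding subunit of all 3 enzymes, had 75.5 and 65.6 scaled CPM in the deletion and 135 and 169 in WT, a log2 fold change of -1.09 (SE 0.16, limma adjusted p = 0.0013), and RPO26 had 131 and 159 in the deletion and 298 and 251 in WT, a log2 fold change of -0.92. RPB5, the subunit that Bud27 contacts, had 87.7 and 73.6 scaled CPM in the deletion and 58.6 and 75.4 in WT, with overlap (log2 fold change 0.27, limma adjusted p = 0.2). Among other assembly factors, NPA3 and RBA50 (joined row) were near 0 at 0.16 and 0.04. In the prefoldin list GIM4 and GIM5, subunits of the canonical complex, rose by 0.94 and 0.85. The CCT chaperonin, to which prefoldin hands its substrates, had 4 of 8 subunits lower and none higher, with CCT5 at -1.08 (limma adjusted p = 0.00054). Its list median of -0.34 was 0.09 on the deposited scale, and without WT replicate 1 or 2 it had 1 or 2 lower.

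The vacuolar proton ATPase, which acidifies the vacuole, divided by sector. Of 19 genes 5 were higher and 8 lower, with a median of -0.24 (0.20 on the deposited scale). In the membrane sector 6 of 7 tested genes were lower and none higher, with a median of -1.89. VMA3, the proteolipid, had 499.6 and 540.1 scaled CPM in the deletion and 2888 and 2987 in WT, a log2 fold change of -2.50 (SE 0.16, limma adjusted p = 2.8e-05). VMA11, a second proteolipid, had 86.8 and 87.6 scaled CPM in the deletion and 672 and 718 in WT, a log2 fold change of -2.98 (SE 0.27, limma adjusted p = 0.00014). VMA16 fell by 2.16, and the alternative large subunits VPH1 and STV1 by 1.89 and 1.47. The groups did not overlap at any of these.

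In the peripheral sector, which splits ATP, 4 of 8 genes were higher and 1 lower, with a median of 0.39. VMA2, a catalytic-ring subunit, had 94.0 and 149 scaled CPM in the deletion and 54.8 and 50.9 in WT, a log2 fold change of 1.15 (SE 0.21, limma adjusted p = 0.0033). VMA1, the other ring subunit, had 421 and 448 in the deletion and 623 and 511 in WT, a log2 fold change of -0.38 that did not pass (limma adjusted p = 0.078). PKR1, which helps assemble the membrane sector, had 109 and 104 scaled CPM in the deletion and 43.9 and 42.6 in WT, a rise of 1.28. The split into sectors was made after the values were seen. Without WT replicate 2 the whole list had 2 higher and 6 lower.

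Genes of TOR signalling numbered 8 higher and 4 lower of 30. FHL1, an activator of ribosomal protein genes, had 26.1 and 22.01 scaled CPM in the deletion and 67.8 and 66.6 in WT, a log2 fold change of -1.45 (SE 0.16, limma adjusted p = 0.00033). NPR1, a kinase held inactive by TOR, rose by 0.76. The list had 3 higher and 1 lower without WT replicate 1, 3 and 4 without WT replicate 2, and 7 and 7 without deletion replicate 1. Of 35 autophagy genes 10 were higher and 4 lower, with a median of 0.25. ATG2, a lipid transfer protein of the growing membrane, had 31.1 and 30.4 scaled CPM in the deletion and 11.6 and 12.6 in WT, a rise of 1.28 (SE 0.14, limma adjusted p = 0.00036). ATG33, of mitochondrial autophagy, rose by 1.06 and ATG27 fell by 1.30. The vacuolar protease PEP4 fell by 1.03 and the aminopeptidase LAP3 rose by 1.15.

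Chaperones of the Hsp70 list were on the lower side, with 8 of 20 lower and 1 higher, and a median of -0.44 (-0.01 on the deposited scale). Without WT replicate 1 or 2, 5 were lower. KAR2, the Hsp70 of the endoplasmic reticulum, had 226 and 247 scaled CPM in the deletion and 786 and 808 in WT, a log2 fold change of -1.75 (SE 0.14, limma adjusted p = 6.9e-05). ZUO1, a ribosome-bound partner, fell by 1.30. HSC82, the constitutive Hsp90, had 984 and 1012 scaled CPM in the deletion and 3181 and 2711 in WT, a log2 fold change of -1.56, whereas its co-chaperone AHA1 rose by 0.79. The 26S proteasome, with 5 higher and 7 lower of 37, had a median of 0.02, and without WT replicate 1 it had 1 higher and 3 lower, without WT replicate 2, 3 of each, and without deletion replicate 2, 10 and 8.

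Protein glycosylation leaned to the lower side after rescaling. Of 40 genes of N-glycosylation and O-mannosylation 21 were lower and 3 higher, with a median of -0.49. On the deposited scale 11 were lower and 10 higher, with a median of -0.06, so the lean depends on the scaling. Without either WT library 15 were lower, and without WT replicate 2 none was higher. OST3 and OST6, alternative subunits of the enzyme that attaches N-glycans, had 20.3 and 23.6 scaled CPM in the deletion against 82.5 and 88.2 in WT, and 28.0 and 37.0 in the deletion against 103 and 107 in WT. Their log2 fold changes were -1.92 (SE 0.14, limma adjusted p = 4.9e-05) and -1.67 (SE 0.16, limma adjusted p = 0.00019). ALG9, a mannosyltransferase of the lipid-linked precursor, fell by 1.84. The vesicle coats had 6 higher and 7 lower of 21, but 4 and 2 without WT replicate 1 and 3 and 4 without WT replicate 2.

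Cell wall genes were lower. Of 30 wall mannoproteins 18 were lower and 1 higher, with a median of -0.80, and of 35 genes of glucan and chitin synthesis 16 were lower and 2 higher, with a median of -0.52. On the deposited scale the medians were -0.38 and -0.09. Without deletion replicate 2, 5 of the glucan and chitin genes were higher. TIP1, a major wall mannoprotein, had 72.1 and 125 scaled CPM in the deletion and 965 and 888 in WT, a log2 fold change of -3.27 (SE 0.25, limma adjusted p = 5.5e-05). DSE2, a glucanase made by daughter cells, fell by 2.06. KRE1, of the glucan layer, had 40.2 and 81.4 scaled CPM in the deletion and 324 and 277 in WT, a log2 fold change of -2.37. CHS2, chitin synthase of the division septum, had 23.0 and 27.7 scaled CPM in the deletion and 99.8 and 115 in WT, a log2 fold change of -2.04 (SE 0.15, limma adjusted p = 4.9e-05). KRE9 was a member that rose, by 0.75.

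Lipid genes divided by class. Of 40 genes for fatty acids, sphingolipids and inositol phospholipids 22 were lower and 2 higher, with a median of -0.62 (-0.19 on the deposited scale). ITR1, the inositol transporter, had 35.8 and 35.6 scaled CPM in the deletion and 136 and 162 in WT, a log2 fold change of -2.02 (SE 0.14, limma adjusted p = 4.4e-05). TSC10, of sphingolipid base synthesis, fell by 1.89 and CHO1, phosphatidylserine synthase, by 1.71, while CHO2, of phosphatidylcholine synthesis, rose by 0.83. In ergosterol synthesis 10 of 30 were higher and 9 lower. HMG1, the main HMG-CoA reductase, had 146 and 112 scaled CPM in the deletion and 51.1 and 46.6 in WT, a rise of 1.37, and its paralog HMG2 had 33.0 and 24.7 in the deletion and 57.2 and 52.4 in WT, a log2 fold change of -0.91 that was not called on the deposited scale. ERG1, squalene epoxidase, had 126 and 208 scaled CPM in the deletion and 380.02 and 364 in WT and fell, while ERG9, squalene synthase, rose by 1.24. Without WT replicate 1, 6 of the ergosterol genes were lower, and without WT replicate 2, 5.

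Isoforms chosen by oxygen supply did not share 1 direction, with 5 higher and 6 lower of 14. AAC3, the ADP/ATP carrier of low oxygen, had 1.11 and 2.34 scaled CPM in the deletion and 35.3 and 30.5 in WT, a log2 fold change of -3.67 (SE 0.23, limma adjusted p = 2.6e-05). The list of TIR, DAN and PAU wall proteins of cold and low oxygen with their regulators had 3 higher and 3 lower of 8, with a median of 0.27. TIR1 had 1.39 and 1.75 scaled CPM in the deletion and 190.2 and 166 in WT, a log2 fold change of -6.12 (limma adjusted p = 4.3e-07), and TIR2 and TIR3 fell by 1.90 and 1.77, while PAU17 rose by 0.95 and the repressor MOT3 by 1.16. MOT3 did not pass without WT replicate 1 (adjusted p = 0.059). ROX1, the repressor of low-oxygen genes, had 44.4 and 32.1 scaled CPM in the deletion and 16.6 and 18.3 in WT, a rise of 1.07 (SE 0.18, limma adjusted p = 0.0025). CYC7, the cytochrome c of low oxygen, was higher, at 20.5 and 31.9 scaled CPM in the deletion and 4.65 and 6.44 in WT. OLE1, the fatty acid desaturase, fell by 1.34 and HEM13, of heme synthesis, by 0.78.

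Iron uptake genes, activated by Aft1 when iron is short, were on the lower side. Of 30 members 18 were lower and 4 higher, with a median of -0.60. On the deposited scale 9 were lower and 7 higher, with a median of -0.20. Without WT replicate 1, 12 were lower, and without WT replicate 2, 10. FET4, a low-affinity iron transporter, had 7.49 and 8.38 scaled CPM in the deletion and 105 and 117 in WT, a log2 fold change of -3.65 (SE 0.14, limma adjusted p = 1.9e-06). The wall proteins FIT2 and FIT3, which retain iron carriers, had 14.4 and 9.15 scaled CPM in the deletion against 284 and 319.6 in WT, and 24.97 and 22.2 in the deletion against 643 and 805 in WT. The letters TGCACCC, part of the Aft1 site, on either strand, were found upstream of 115 of 5033 genes (2.29%). Of 109 tested genes with them 32.1% were lower and 18.3% higher, against 24.6% and 22.3% of the 4761 without. Of 10 genes with at least 2 matches 6 were lower and 1 higher. The stretches of both FIT genes are shown for their dense matches, in capitals, at chrXV:1059181-1059420 (plus strand) for FIT2 and chrXV:1061216-1061360 (minus) for FIT3.
FIT2: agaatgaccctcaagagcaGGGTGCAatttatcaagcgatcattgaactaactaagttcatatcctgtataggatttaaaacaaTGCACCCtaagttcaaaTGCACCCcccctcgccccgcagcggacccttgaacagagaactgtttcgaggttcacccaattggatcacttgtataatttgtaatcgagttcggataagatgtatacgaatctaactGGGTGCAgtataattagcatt
FIT3: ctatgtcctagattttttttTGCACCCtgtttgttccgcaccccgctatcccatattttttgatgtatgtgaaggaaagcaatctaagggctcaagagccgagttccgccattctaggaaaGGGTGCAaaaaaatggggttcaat
FIT2 held 4 matches and FIT3 held 2. Of the tested genes FIT2 alone had more than 2.

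Zinc and copper genes had 11 lower and 2 higher of 23, with a median of -0.42 that was 0.01 on the deposited scale. Without either WT library 7 were lower. ZRT1, the high-affinity zinc transporter, had 7.21 and 11.5 scaled CPM in the deletion and 76.7 and 84.1 in WT, a log2 fold change of -3.00 (SE 0.20, limma adjusted p = 3.2e-05). COT1, which moves zinc and cobalt into the vacuole, had 50.5 and 39.9 in the deletion and 18.7 and 18.6 in WT, a rise of 1.23.

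The phosphate regulon had 12 higher and 5 lower of 29, with a median of 0.27. Its sensors and transporters differed in direction. PHO84, the high-affinity transporter, had 475 and 453 scaled CPM in the deletion and 23.2 and 24.99 in WT, and PHO81, the inhibitor of the regulon's kinase, had 63.2 and 66.8 in the deletion and 27.9 and 23.3 in WT, a rise of 1.32. The low-affinity transporters PHO87 and PHO90 had 23.6 and 38.2 scaled CPM in the deletion against 102 and 112 in WT, and 67.7 and 49.1 in the deletion against 151 and 133 in WT. They fell by 1.80 and 1.28. Upstream CACGTG, the core that Pho4 binds, occurred in 6.24% of the 5033 regions. Of 304 tested genes with it 26.3% were higher and 27.0% lower, against 21.9% and 24.7% of the 4566 without.

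In the oxidative stress list 12 of 31 were lower and 5 higher, with a median of -0.43 that was 0.00 on the deposited scale, where 8 were lower and 11 higher. Without WT replicate 1 or 2, 3 or 2 were higher. OYE2, an NADPH oxidoreductase, had 114 and 138 scaled CPM in the deletion and 721 and 776 in WT, a log2 fold change of -2.57 (SE 0.17, limma adjusted p = 3.2e-05). Among drug exporters, FLR1 and SNQ2 had 21.1 and 17.9 scaled CPM in the deletion against 105 and 118 in WT, and 103 and 129.5 in the deletion against 608 and 609.96 in WT. They fell by 2.45 and 2.39. ATR1, an exporter of aminotriazole and boron, had 87.1 and 58.6 scaled CPM in the deletion and 12.9 and 16.7 in WT, a rise of 2.21 (SE 0.22, limma adjusted p = 0.00022).

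Lists of transcription and chromatin were read against the same background. Of 53 genes of Mediator, SAGA and TFIID 21 were higher and 3 lower, with a median of 0.29, but without WT replicate 1 or 2 only 7 or 5 were higher. SRB2, a Mediator head subunit, had 74.1 and 63.3 scaled CPM in the deletion and 12.0 and 11.8 in WT, a log2 fold change of 2.43 (SE 0.15, limma adjusted p = 2.4e-05). TAF10, shared by SAGA and TFIID, had 69.6 and 68.2 in the deletion and 26.4 and 26.01 in WT, a rise of 1.36. SPT15, the TATA-binding protein, had 104 and 117 in the deletion and 185 and 210.2 in WT, a log2 fold change of -0.83 (SE 0.14, limma adjusted p = 0.0024). Chromatin remodelling had 13 higher of 52, a share close to the 21.7% of all rows, and 5 lower, with 7 higher without either WT library and 21 without deletion replicate 2.

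Histone genes had 5 of 10 lower and none higher, and 2 were lower without either WT library, and 3 without deletion replicate 1. HHO1, linker histone H1, had 84.9 and 108 scaled CPM in the deletion and 256 and 203 in WT, a log2 fold change of -1.24 (SE 0.17, limma adjusted p = 0.00097). HHT1 and HHT2, copies of histone H3, had log2 fold changes of -0.18 and 0.11 and did not pass, although HHT1 did without deletion replicate 2 (adjusted p = 0.0091), and copies of a histone are nearly identical in their coding parts. RNR1, the large subunit of ribonucleotide reductase, had 189 and 280.5 scaled CPM in the deletion and 658 and 527 in WT, a log2 fold change of -1.35 (SE 0.21, limma adjusted p = 0.0017), within a replication list with 9 higher and 9 lower of 40. Without WT replicate 1 that list had 4 and 5, and without WT replicate 2, 1 and 5. The tubulins TUB1 and TUB2 fell by 1.01 and 1.23. The decapping activator PAT1 had 40.5 and 57.8 scaled CPM in the deletion and 228 and 206 in WT, a log2 fold change of -2.14. Proteins that carry RNA and protein through the nuclear pore included lower members, SUB2 at -1.55 and KAP123 at -1.18, in a list with 10 higher and 17 lower of 56. Without WT replicate 1 that list had 4 and 8, and without WT replicate 2, 2 and 10.

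Mating type a was visible in both groups. STE2, the receptor of a cells, had 227 and 276 scaled CPM in the deletion and 201 and 209.5 in WT, a log2 fold change of 0.29 that did not pass (limma adjusted p = 0.13, and 0.016 without deletion replicate 1). The a-factor gene MFA1 had 176 and 297 scaled CPM in the deletion and 572 and 682 in WT, a log2 fold change of -1.45 (SE 0.24, limma adjusted p = 0.0022). Also of a cells, MFA2 fell by 0.69, and BAR1 and STE6 had log2 fold changes of -0.37 and -0.46 that did not pass. Of the genes of alpha cells, MF(ALPHA)1 had 1 read in each deletion library and none in WT, and MF(ALPHA)2 had 3 and 2 reads in the deletion and 7 and 2 in WT. STE3, the other receptor, had 2 and 1 reads in the deletion and 89 and 42 in WT. SAG1, a further gene of alpha cells, was detected in both groups. It had 8.04 and 7.60 scaled CPM in the deletion and 10.2 and 11.8 in WT (log2 fold change -0.44, limma adjusted p = 0.053). The pheromone list had 10 lower and 2 higher of 26, with a median of -0.37 that was 0.04 on the deposited scale. Without WT replicate 2, 5 were lower.

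Abundant noncoding RNAs stood far below WT, in libraries primed on poly(A) tails, which such RNAs largely lack. SCR1, the RNA of the signal recognition particle, had 11 and 23 reads in the deletion and 802 and 807 in WT, a log2 fold change of -3.33 (SE 0.22, limma adjusted p = 3.2e-05). RPR1, the RNA of RNase P, had 19 and 31 reads in the deletion and 838 and 1012 in WT, a log2 fold change of -3.03. NME1, the RNA of RNase MRP, had 6 and 7 reads in the deletion and 309 and 270 in WT, a log2 fold change of -2.81. Of 54 snoRNA rows 23 were lower and 4 higher, with a median of -0.32. Whether these values follow the RNA's level or its polyadenylated share was not tested.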

How the data were processed

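The authors deposited CPM values, counts scaled to a fixed library size, from QuantSeq 3′ end libraries. FastQC, HISAT2, DESeq, DESeq2 and build R64 are named, without versions, per the submitters' processing notes. The counter, annotation, strand setting and treatment of multiply mapped reads are not stated there or in the labels. Every column was read through a written map to its sample, and 0 columns were unmapped. Each value was a whole multiple of the value of 1 read, so reads were recovered, and 3 reads, the limit that a count of 0 allows, are 0.934 and 0.590 CPM in the deletion and 0.112 and 0.165 CPM in WT. Such limits cover counting error only.

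TMM factors (edgeR 4.0.16) were 1.12 and 1.01 for the deletion and 0.767 and 0.805 for WT. Rows that passed edgeR's filter by expression (minimum count 10) were tested in R 4.3.3 with limma 3.58.1, its variance prior following abundance, on log2(scaled CPM + 1) in 1 model of all 6 libraries and 3 groups (3 residual degrees of freedom). The model gives each gene 1 spread for deep and shallow libraries. A count test had been planned first, and as the unit is CPM it became an alternative, with edgeR and DESeq2 1.42.0 on the recovered reads. p-values were adjusted after Benjamini and Hochberg over 5279 rows, with a threshold of 0.05. Of the tested rows 281 join several features, and each is counted as 1 row. Motifs of 15 kinds were searched on both strands in the 500 bases upstream of start codons, with sequences from the RefSeq genome of build R64.

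Most list members are counted but not reported here by name. The members and lists were chosen with earlier results of these data known. Genes named were BUD27, its neighbours and marker loci, any member of a list with at most 21 members in the table, and otherwise up to 3 highest and 3 lowest called members with a mean of at least 20 scaled CPM. Alternatives were the deposited scale, median-of-ratios size factors, pseudocounts of 0.25 and 5, no filter, a minimum mean of 10 CPM, the 4 libraries alone, a replicate block, each library left out, and reads thinned to 2083667 per library.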

Additional observations from a re-analysis of the deposited data

How the results depend on the processing

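The number of rows that passed was between 2051 and 2949 under every alternative other than leaving out a library, and between 1434 and 3031 when each library was left out in turn. Rows higher in the deletion numbered 633 to 1470 and rows lower 801 to 1561 when each library was left out, and the fewest were without a WT library. On the deposited scale 2245 rows were higher and 704 lower, and the median log2 fold change was 0.38, since that scale does not correct for composition. The median was 0 with no filter, 0.0201 with the 4 libraries alone, 0.0302 with reads thinned to the shallowest library, and -0.0282 to 0.00163 when each library was left out. Rows with a log2 fold change of at least 1 numbered 650 to 1217. The sign of the median changed on the deposited scale for 28 of the 79 lists. The replicate numbers were checked for pairing by correlating the deviations of replicate 1 from its group mean. The correlation was -0.05 between deletion and WT, 0.04 between deletion and rapamycin, and -0.10 between WT and rapamycin. Such values include counting noise and cannot show whether samples of equal number shared a batch. With the number as a replicate block 2377 rows passed, 1093 higher and 1284 lower. Of the named genes, none changed direction among called genes under any alternative. TDH3 did not pass with no filter (adjusted p = 0.083), with the 4 libraries alone (0.059) or with the replicate block (0.094), and MET17 did not pass with edgeR on recovered reads (0.052). On the deposited scale BAT2, HHT2, LPD1, NPA3, PYK2, RPB5, SHM1 and STE2 passed as higher. Depth limits rare transcripts most: in the 528 rows with the lowest WT level the 2 deletion libraries together held a median of 14.5 reads.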
